A study of Mus musculus with 32 samples.

Results

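The amino acid transporter genes described here are 10 carriers and carrier subunits of the plasma membrane, namely Slc7a5, Slc3a2, Slc7a11, Slc1a5, Slc1a4, Slc38a1, Slc38a2, Slc7a1, Slc7a3 and Slc43a1. They were taken by their symbols from the table of gene counts, by a rule that uses no measured value, although the set was put together with earlier results of these data known. They are 10 of the 37310 genes counted, and all 10 were expressed highly enough to be tested, with between 1868 counts (Slc43a1) and 27581 counts (Slc38a1) over the 14 tumors. The study compared mouse models of medulloblastoma (MB), a childhood tumor of the cerebellum, that are driven by either MYC or MYCN. RNA was extracted from fresh-frozen brain tumor biopsies and sequenced by Ion Torrent. GMYC tumors (n = 6) arose in Glt1-tTA/TRE-MYC mice, which are hemizygous for both a tetracycline transactivator expressed from the Glt1 promoter and a human MYC transgene that the transactivator turns on. GTML tumors (n = 8) arose in mice in which the same Glt1-tTA driver turns on a MYCN transgene. The study's own comparison of the models left out a GTML tumor that it placed with another MB subgroup, whereas all 8 are used here. Both models were on the FVB/N background, and neither the animals' ages nor whether each tumor came from a separate mouse is given in the labels, so the p-values below measure the spread between these biopsies. The study describes most or all of the GTML tumors as sequenced in earlier work, and the sources used here do not say which. A difference in sequencing occasion therefore cannot be told apart from the model in the comparisons below. The 18 cell line samples of the series were not analysed here.

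Cells take up most amino acids through carriers of a few families, each with its own substrates and its own source of driving force. Slc7a5 (LAT1) and Slc7a11 (xCT) are exchangers that reach the cell surface only when bound to the heavy chain Slc3a2 (4F2hc). Slc1a5, Slc38a1 and Slc38a2 carry glutamine and other neutral amino acids and depend on sodium, as does Slc1a4, which carries alanine, serine and cysteine. The cationic carriers Slc7a1 and Slc7a3 bring in arginine and lysine. MYC proteins are known for raising glutamine and leucine uptake in many tumors, and the transcription factor Atf4 for raising carriers and amino acid synthesis enzymes when amino acids run short. Endothelial cells and astrocytes of the brain also use several of these carriers. Glt1 is itself a carrier, the glutamate transporter encoded by Slc1a2.

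The start regions of Slc7a11, Slc1a4 and Slc7a1 are shown because the former pair held the core sequence that Atf4 is known to bind, and because Slc7a1 was far below the other GMYC tumors in 1 of them. They were read from RefSeq windows on the GRCm38.p6 assembly, which covered 250 bases before and 50 bases after each start site and were found for 6 of the 10 genes. The counts themselves were made on the older mm9 assembly. Each sequence runs 5′ to 3′ along the gene and ends just before the start site, apart from that of Slc1a4, which runs 4 bases into the transcript because the match crosses the start. Capitals mark motif matches.
Slc7a11, chr3:50443614-50443863, minus strand: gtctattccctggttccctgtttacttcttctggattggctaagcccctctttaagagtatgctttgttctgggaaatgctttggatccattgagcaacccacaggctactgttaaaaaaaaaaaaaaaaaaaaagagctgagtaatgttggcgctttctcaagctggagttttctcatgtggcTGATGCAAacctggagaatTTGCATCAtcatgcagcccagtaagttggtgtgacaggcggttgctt
Slc1a4, chr11:20332710-20332963, minus strand: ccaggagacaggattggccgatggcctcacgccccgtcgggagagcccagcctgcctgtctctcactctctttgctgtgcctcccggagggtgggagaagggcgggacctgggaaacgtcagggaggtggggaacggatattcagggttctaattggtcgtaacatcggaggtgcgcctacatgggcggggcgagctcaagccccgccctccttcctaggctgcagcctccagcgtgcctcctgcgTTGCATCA
Slc7a1, chr5:148399905-148400154, minus strand: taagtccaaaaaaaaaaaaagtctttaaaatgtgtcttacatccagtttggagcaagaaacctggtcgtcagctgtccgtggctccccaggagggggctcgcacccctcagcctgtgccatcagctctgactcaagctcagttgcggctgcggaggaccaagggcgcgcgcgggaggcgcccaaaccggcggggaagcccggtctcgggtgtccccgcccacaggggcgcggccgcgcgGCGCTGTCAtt
On both strands of the whole windows of 300 bases, 3 motifs were searched. The 6 genes had 7 windows, since Slc7a1 had 2. Its first window is the one shown and meant below, and its second held no match. In the order given below, the motifs occurred in 2, 3 and 1 of the 7 windows. The core of the amino acid response element, TGATGNAA, occurred in 2 of the 6 genes. Slc7a11 held it at 66 bases before the start and again, on the other strand, at 47 bases before it, and Slc1a4 held it across the start. Of all 32851 windows, 3.97% held this core. The core of the antioxidant response element, TGACNNNGC, which the oxidative stress factor Nfe2l2 binds, occurred at 11 bases before the start of Slc7a1, at 27 bases in Slc38a2 and at 16 bases in Slc43a1, against 12.4% of all windows. The E-box CACGTG, which MYC proteins bind, occurred only in Slc43a1 among the 6 genes with a window, at 64 bases before the start, against 7.15% of all windows. No matches overlapped, and a match is a run of letters rather than a bound site.

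Depth followed the model, with totals from 6218378 up to 7279811 counts for GMYC (median 7054382) and from 4602294 up to 6317404 counts for GTML tumors (median 5584681.5). Small nucleolar RNAs held a share of the counts that split the tumors into 6 with 0.366% to 0.438% (GMYC tumors 1 to 4 and GTML tumors 1 and 2) and 8 with 0.151% to 0.272% (GMYC tumors 5 and 6 and GTML tumors 3 to 8), which is not a label of the study. Counts of Y-linked genes were at least 2115 in all 6 GMYC tumors and at least 1102 in GTML tumors 1, 4, 6 and 7, and at most 16 in GTML tumors 2, 3, 5 and 8, so that the models also differed in Y-linked counts. Whether this reflects a different mix of males and females was not tested. GMYC tumor 6 stood apart in its driver, with Myc at 33.3 CPM (counts scaled to equal library size by the TMM method) against at least 134 CPM in the other GMYC tumors and at most 8.66 CPM in GTML tumors. GTML tumors had Mycn at 159 ± 28.0 CPM (SD, n = 8), the GMYC tumors at 23.0 ± 10.7 CPM (SD, n = 6), and reads of the transgenes were not told apart from those of the mouse genes. The MB marker Otx2 was at 315 ± 35.0 CPM in GMYC and 323 ± 48.6 CPM in GTML tumors, and the photoreceptor factor Crx, at 384 ± 27.3 and 325 ± 96.6 CPM, was also high in both. Some other listed markers were scarce, among them Eomes at 0.315 ± 0.327 and 0.673 ± 1.16 CPM.

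To put the carriers in order, their CPM was divided by the length of the union of their exons. Slc7a5, the leucine and glutamine exchanger, had the highest level in both models. Its median level per kilobase of exon was 50.3 CPM in GMYC tumors (range 31.1 to 55.1) and 45.9 CPM in GTML tumors (range 27.6 to 60.6). Slc7a5 ranked first in 12 of the 14 tumors, and in the other 2, GMYC tumors 5 and 6, its heavy chain Slc3a2 did. Slc3a2 had medians of 40.3 CPM per kilobase in GMYC tumors (range 38.5 to 52.0) and 30.6 CPM per kilobase in GTML tumors (range 25.9 to 46.1). Slc38a2, a sodium-coupled carrier of neutral amino acids, had 35.9 CPM per kilobase in GMYC (range 32.2 to 40.3) and 30.9 in GTML tumors (range 20.5 to 42.5). In GTML tumors its median was slightly above that of Slc3a2. The ranges of these leading 3 genes overlapped, so their order was not settled by the spread between tumors. Slc1a5, Slc1a4, Slc7a1 and Slc38a1 formed a middle group whose ranges overlapped each other, with medians between 19.1 and 30.1 CPM per kilobase in GMYC and between 18.6 and 23.1 in GTML tumors. This group was not apart from the leading 3 genes. Slc1a5 reached 34.2 in GMYC tumors, above the lowest values of Slc7a5 and Slc38a2. In GTML tumors Slc1a4 reached 27.7, above the lowest value of each leading gene.

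The remaining 3 carriers took the last 3 places in every tumor. Slc7a3, a cationic carrier of neurons, had medians of 7.64 CPM per kilobase in GMYC tumors (range 2.76 to 13.2) and 6.14 in GTML tumors (range 4.04 to 9.53). The cystine carrier Slc7a11 stood at 2.52 CPM per kilobase in GMYC (range 2.30 to 2.91) and 2.88 in GTML tumors (range 1.88 to 3.75). Slc43a1, a leucine carrier that needs no heavy chain, had 2.30 CPM per kilobase in GMYC tumors (range 0.860 to 4.84) and 4.84 in GTML tumors (range 2.38 to 6.96). Slc43a1 and Slc7a11 held the lowest 2 places in both models and changed places between them. Dividing by the longest transcript in place of all exons raised Slc38a1 from the seventh place to the fourth, at a median of 44.8 in place of 18.9 CPM per kilobase over all tumors. Of the other members, Slc7a5 kept the first place and Slc3a2 the second.

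**Figure D1:**
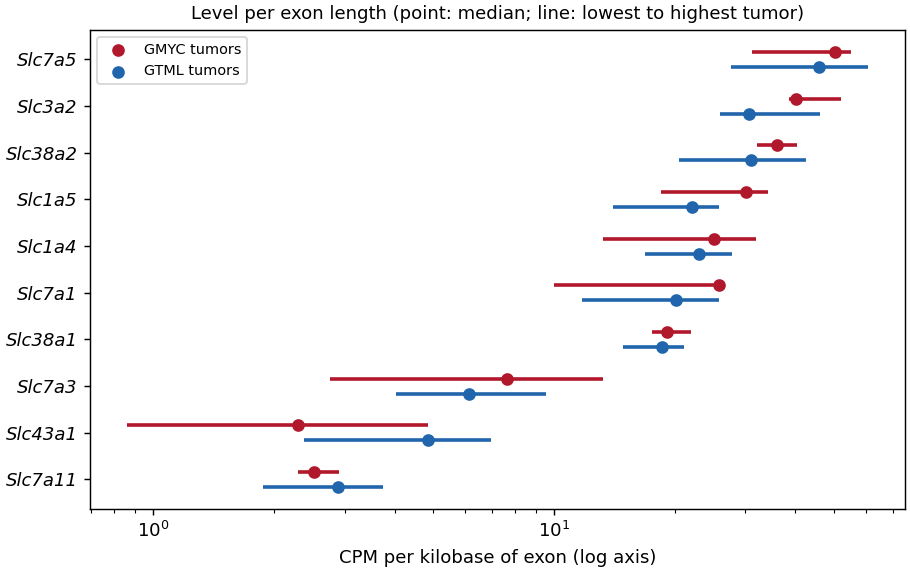
Level of each carrier in CPM per kilobase of exon on a log axis, for 6 GMYC (red) and 8 GTML (blue) tumors; points are medians and lines run from the lowest to the highest tumor. Slc7a5 had the highest median in both models and Slc7a11 and Slc43a1 the lowest medians.

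The central question was whether MYC-driven and MYCN-driven tumors differ in these carriers. Most did not pass the test. In the fit across 21024 genes, edgeR's quasi-likelihood test with Benjamini-Hochberg adjustment called 1 of the 10 carriers at an adjusted p under 0.05, the heavy chain Slc3a2, which was higher in GMYC tumors. The same test called 21.2% of all genes tested, 9.71% as higher in GMYC and 11.5% as higher in GTML tumors. At the study's stricter thresholds (adjusted p under 0.01, and a fold change past 1 on the log2 scale) edgeR, DESeq2 and limma-voom each called 0 carriers. EdgeR called 3.22% of all genes at them (1.1% higher in GMYC and 2.11% higher in GTML tumors). By each tool, 3 carriers had an unadjusted p under 0.05 (Slc3a2, Slc1a5 and Slc43a1). Of all 21024 genes, 3658 had such a p as higher in GMYC and 4280 as higher in GTML tumors by edgeR. The 3 of 10 carriers are thus not above the share of all genes. Point estimates were lower in GTML tumors for 8 of the 10 carriers and for 9991 of all 21024 genes. The carriers had a median log2 fold change of GTML over GMYC of -0.18 against 0.036 over all genes tested. For all 10 carriers the ranges of the models overlapped, whereas 4.62% of all genes had ranges that did not overlap (2.48% with GMYC and 2.14% with GTML tumors above). Since these are whole biopsies, fewer cells of a type and less RNA per cell cannot be told apart in any of these values.

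**Figure D2:**
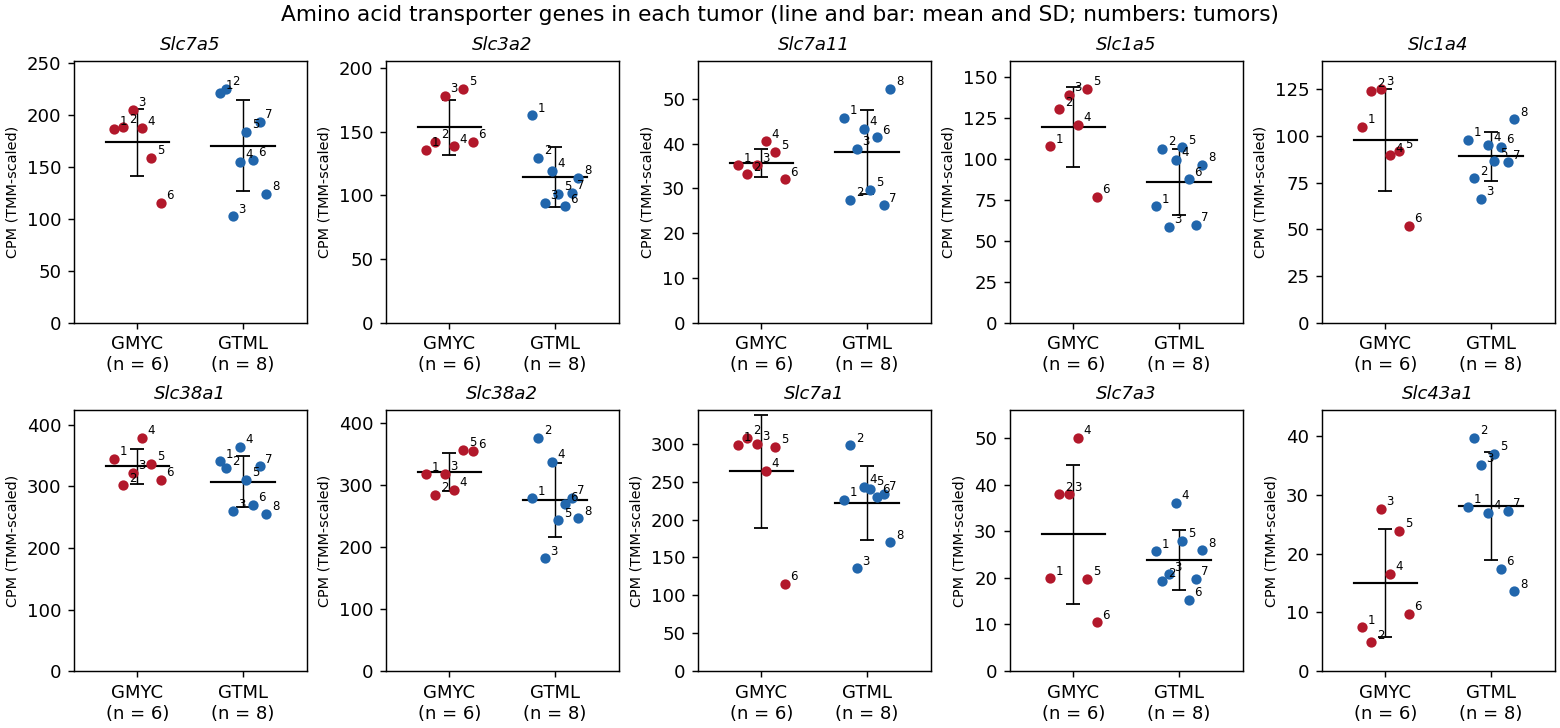
TMM-scaled CPM of the 10 carriers in each of 6 GMYC (red) and 8 GTML (blue) tumors, numbered; horizontal lines are means and bars SD. Slc3a2 was below the lowest GMYC tumor in 7 of 8 GTML tumors, and 6 of the carriers had their lowest GMYC value in GMYC tumor 6.

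Slc3a2, the shared heavy chain that carries its light chains to the cell surface, had a lowest value of 136, a median of 142 and a highest value of 184 CPM in GMYC tumors. In GTML tumors the lowest, median and highest values were 91.4, 108 and 163 CPM. GTML tumor 1 was the only GTML tumor within the GMYC range, and the other 7 lay below every GMYC tumor. The means were 153 ± 21.5 CPM (SD, n = 6) and 114 ± 23.4 CPM (SD, n = 8), a ratio of 1.34, with a log2 fold change of -0.42 (standard error, SE, 0.13, 95% interval -0.70 to -0.14, adjusted p = 0.0340, edgeR). The estimates differed across the small nucleolar RNA split, although the 2 sides of the split were not tested against each other. Among tumors with the higher share Slc3a2 averaged 149 CPM in 4 GMYC and 146 CPM in 2 GTML tumors. The log2 fold change there was -0.014 (SE 0.18, adjusted p = 0.98, edgeR). Of all genes, that small fit called 2 higher in GMYC and 0 higher in GTML tumors, so it could show little. Among tumors with the lower share Slc3a2 averaged 163 CPM in 2 GMYC and 104 CPM in 6 GTML tumors, with a log2 fold change of -0.66 (SE 0.16, adjusted p = 0.0294, edgeR).

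The call of Slc3a2 also depended on single tumors. It was kept in 7 of the 14 fits that each left out 1 tumor and lost without GMYC tumor 3 or 5 or without GTML tumor 3, 5, 6, 7 or 8, where the log2 fold change still lay between -0.51 and -0.37 over all 14 fits and the adjusted p reached at most 0.0854. Adding the small nucleolar RNA split to the edgeR model gave an adjusted p of 0.0850, and adding the level of Y-linked genes gave 0.168. In the 4 GTML tumors with Y-linked counts Slc3a2 ranged from 91.4 to 163 CPM and in the 4 without from 94.3 to 129 CPM. Of the 7 erythroid markers tested, 5 were called higher in GMYC tumors, and the summed level of the list ranged from 119 to 233 CPM in GMYC and from 82.7 to 166 CPM in GTML tumors. The globin genes fell in GTML tumors with log2 fold changes between -2.55 (Hbb-bt) and -1.78 (Hbb-bs), and Bpgm, the most abundant erythroid gene in GMYC tumors, was at 54.3 ± 9.81 and 39.9 ± 6.97 CPM. Alas2, the most abundant one in GTML tumors, leaned the other way at 35.4 ± 16.6 and 50.7 ± 29.9 CPM (log2 fold change 0.51, adjusted p = 0.276, edgeR), as did the scarce Slc4a1 (0.87, adjusted p = 0.302). Their part in the result was not tested.

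Slc7a5, the LAT1 light chain that pairs with Slc3a2 to exchange leucine and other large neutral amino acids for glutamine, did not pass the test. Its lowest, median and highest values were 115, 187 and 204 CPM in GMYC and 102, 170 and 225 CPM in GTML tumors. The GTML tumors spanned the whole GMYC range, with 2 above it and 1 below it. The log2 fold change was -0.029 (SE 0.17, adjusted p = 0.919, edgeR), and its 95% interval of -0.40 to 0.34 leaves room for a change in either direction. Per kilobase of exon, the level of Slc7a5 over that of Slc3a2 had a median of 1.18 in GMYC tumors and 1.46 in GTML tumors. The ratio ran from 0.774 in GMYC tumor 6 to 1.31 in GMYC tumor 1, and from 1.03 in GTML tumor 3 to 1.80 in GTML tumor 7.

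Slc7a11, the xCT light chain that imports cystine for glutathione in exchange for glutamate, did not pass the test either and varied little within the GMYC model. Its lowest, median and highest values were 32.0, 35.1 and 40.5 CPM in GMYC and 26.2, 40.2 and 52.2 CPM in GTML tumors. GTML tumors lay on both sides of the narrow GMYC range, with 4 above it and 3 below it. The log2 fold change was 0.096 (SE 0.17, 95% interval -0.26 to 0.45, adjusted p = 0.698, edgeR). The spread relative to the mean was 8.80% in GMYC and 24.8% in GTML tumors, a difference in spread that was not tested.

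The other light chains that can pair with Slc3a2 were looked at next, chosen after their values had been seen. Slc7a8 (LAT2), an exchanger of neutral amino acids, fell from 76.7 ± 30.9 CPM in GMYC to 34.0 ± 14.5 CPM in GTML tumors, a log2 fold change of -1.18 (SE 0.33, adjusted p = 0.0213, edgeR). Slc7a10, an exchanger of small neutral amino acids, was scarce and higher in GTML tumors, at 1.195 ± 1.07 and 3.62 ± 1.63 CPM (log2 fold change 1.58, adjusted p = 0.0373). Slc7a6 (y+LAT2) was at 140 ± 31.2 and 149 ± 23.9 CPM (adjusted p = 0.698). Slc7a7 (y+LAT1) was at 10.1 ± 2.76 and 7.83 ± 3.79 CPM (adjusted p = 0.385). The light chains gave 1 call in each direction, and Slc7a5, Slc7a6, Slc7a7 and Slc7a11 gave none.

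Of the sodium-dependent glutamine carriers, Slc1a5 (ASCT2) came closest to the threshold. Its lowest, median and highest values were 76.9, 126 and 143 CPM in GMYC and 58.5, 92.0 and 107 CPM in GTML tumors. All 8 GTML tumors were below the GMYC median, and 5 of the 6 GMYC tumors were above the highest GTML tumor, the exception being GMYC tumor 6. The means were 120 ± 24.6 CPM (SD, n = 6) and 85.8 ± 20.1 CPM (SD, n = 8), with a log2 fold change of -0.48 (SE 0.17, 95% interval -0.84 to -0.12, adjusted p = 0.0565, edgeR). It passed at 0.0261 without GMYC tumor 6 and at 0.0324 without GTML tumor 2, and in none of the other 12 fits that left out a tumor. DESeq2 also called it over all 14 tumors (adjusted p = 0.0488). Within the small nucleolar RNA split the log2 fold changes were similar in size, -0.48 at the higher and -0.38 at the lower share, with adjusted p of 0.394 and 0.374 (edgeR). Its paralog Slc1a4 (ASCT1), a carrier of alanine, serine and cysteine, had lowest, median and highest values of 51.9, 98.4 and 125 CPM in GMYC and 66.3, 90.5 and 109 CPM in GTML tumors, which overlapped widely. The log2 fold change of Slc1a4 was -0.14 (95% interval -0.50 to 0.22, adjusted p = 0.577, edgeR).

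Slc38a1 (SNAT1) and Slc38a2 (SNAT2), sodium-coupled importers of glutamine and other small neutral amino acids, varied little across GMYC tumors, with SDs of 8.38% and 9.41% of their means. Slc38a1 had lowest, median and highest values of 302, 329 and 379 CPM in GMYC and 256, 320 and 364 CPM in GTML tumors. For Slc38a1, 3 GTML tumors were below every GMYC tumor and the rest were within the GMYC range, and the log2 fold change was -0.11 (95% interval -0.32 to 0.094, adjusted p = 0.412, edgeR). Slc38a2, which Atf4 is known to raise, had lowest, median and highest values of 284, 317 and 356 CPM in GMYC and 182, 273 and 376 CPM in GTML tumors. For Slc38a2, 6 of the 8 GTML tumors were below every GMYC tumor and 1, GTML tumor 2, was above every one. Its log2 fold change was -0.21 (SE 0.13, 95% interval -0.49 to 0.066, adjusted p = 0.243, edgeR), and it was 0.12 among tumors with the higher and -0.46 among tumors with the lower small nucleolar RNA share.

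The cationic carriers of arginine and lysine varied more within the GMYC model, with SDs of 28.2% of the mean for Slc7a1 and 50.9% for Slc7a3. Slc7a1 (CAT1), the widely expressed one, had lowest, median and highest values of 115, 298 and 308 CPM in GMYC and 136, 232 and 298 CPM in GTML tumors. Its 5 GMYC tumors other than GMYC tumor 6 lay between 265 and 308 CPM, and 7 of the 8 GTML tumors were below the GMYC median. The log2 fold change of Slc7a1 was -0.25 (SE 0.20, 95% interval -0.68 to 0.18, adjusted p = 0.380, edgeR). It was -0.40 without GMYC tumor 6 (adjusted p = 0.0670) and -0.47 without both GMYC tumor 6 and GTML tumor 2 (adjusted p = 0.0198), a choice made after the data had been seen. Slc7a3 (CAT3) had lowest, median and highest values of 10.4, 28.9 and 50.04 CPM in GMYC and 15.3, 23.2 and 36.1 CPM in GTML tumors. The GTML range of Slc7a3 lay inside the GMYC range, and its log2 fold change of -0.30 (95% interval -0.93 to 0.33, adjusted p = 0.479, edgeR) was -0.68 at the higher and 0.68 at the lower small nucleolar RNA share. A further cationic carrier, Slc7a2, chosen after its values had been seen, was higher in GTML tumors, at 23.8 ± 6.29 and 39.4 ± 13.3 CPM (log2 fold change 0.73, adjusted p = 0.0408, edgeR).

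Slc43a1 (LAT3), a facilitative carrier of leucine, isoleucine, valine and phenylalanine, had the largest difference between the models among the 10 carriers and leaned the other way. Its lowest, median and highest values were 4.92, 13.1 and 27.6 CPM in GMYC and 13.6, 27.6 and 39.8 CPM in GTML tumors. No GTML tumor was below the GMYC median, 4 of the 8 were above every GMYC tumor, and 3 of the 6 GMYC tumors were below every GTML tumor. The means were 15.0 ± 9.26 CPM (SD, n = 6) and 28.1 ± 9.18 CPM (SD, n = 8), and the log2 fold change was 0.90 (SE 0.37, 95% interval 0.13 to 1.68). It did not pass edgeR's test (adjusted p = 0.0852), nor in any of the 14 fits without 1 tumor, but did with DESeq2 (0.0409) and limma-voom (0.0469). The direction held at the higher (1.27) and the lower small nucleolar RNA share (0.63). The paralog Slc43a2 (LAT4), also outside the naming rule, was at 54.5 ± 10.8 and 75.5 ± 19.1 CPM (log2 fold change 0.47, adjusted p = 0.0895, edgeR).

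**Figure D3:**
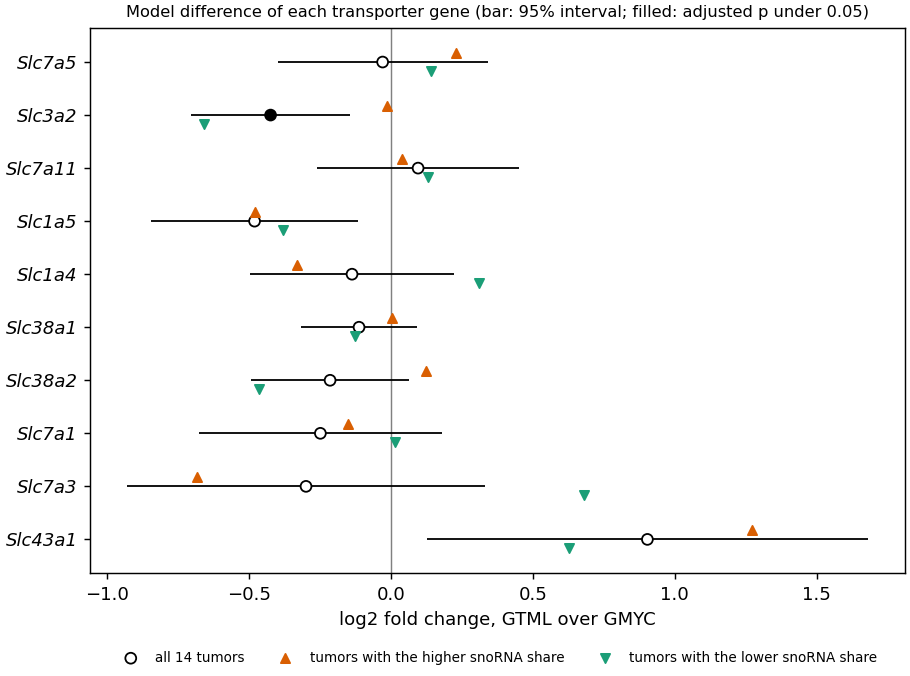
Log2 fold change of GTML over GMYC for each carrier over all 14 tumors (circles with 95% intervals; filled where the adjusted p is under 0.05) and within the tumors with the higher (upward triangles) and lower (downward triangles) small nucleolar RNA share. Slc3a2 is at -0.42 with all tumors, -0.014 at the higher and -0.66 at the lower share.

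Single tumors departed from their model in many carriers at a time. In GMYC tumor 6, 6 of the 10 carriers had their lowest GMYC value (Slc7a5, Slc7a11, Slc1a5, Slc1a4, Slc7a1 and Slc7a3). This tumor was below the GMYC median for 9 carriers, with a median log2 deviation of -0.53. Slc38a2 was the exception, at 354 CPM against a GMYC median of 317 CPM, and Slc3a2, at 142 CPM, was at its GMYC median. It was also the GMYC tumor with the least Myc, and its summed level of the 10 carriers was 1218 CPM, the lowest of the GMYC tumors, which reached 1687 CPM. The summed erythroid markers were at their highest there (233 CPM), and the summed endothelial markers (139 CPM, against up to 242) and microglia markers (161 CPM, against up to 270) at their lowest among GMYC tumors. Whether any of these had a part in the low carriers was not tested. In the other model, GTML tumor 3 had the lowest value of its model for 5 carriers and was below the GTML median for 9, with a median log2 deviation of -0.37, at a Mycn level of 130 CPM within a range of 119 to 191 CPM. GTML tumor 2 had the highest value of its model for 4 carriers, with a median log2 deviation of 0.24.

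**Figure D4:**
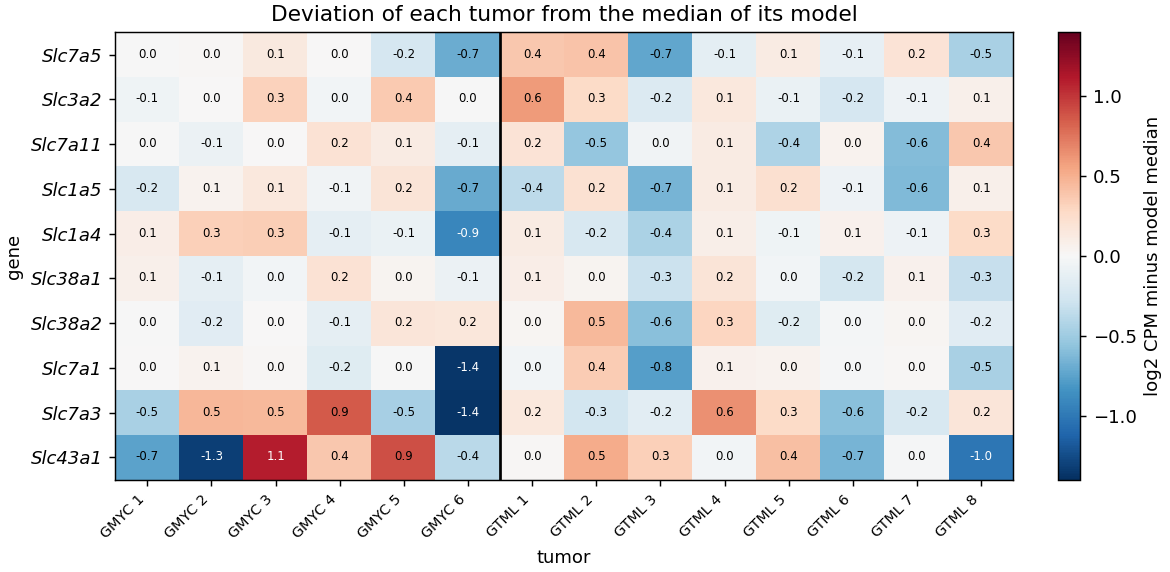
Log2 CPM of each carrier (rows) in each tumor (columns) minus the median of the tumor's model, in red above and blue below that median. GMYC tumor 6 and GTML tumor 3 were below their model's median for 9 of the 10 carriers each.

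Whether the chains of one carrier, or the related carriers Slc38a1 and Slc38a2, rose and fell together was examined within each model, over 6 relations. In GMYC tumors log2 CPM of Slc7a5 and Slc3a2 gave Pearson's r = 0.119 (exact permutation p = 0.829, adjusted 0.829) and Spearman's rho = 0.143 (exact permutation p = 0.803). Leaving out GMYC tumors 5 and 6, those farthest from the median of Slc7a5, gave r = 0.998 over 4 tumors, of which GMYC tumors 1, 2 and 4 lay close together (186 to 188 CPM of Slc7a5) and GMYC tumor 3 apart from them (204 CPM), so no relation is read from it. In GTML tumors r was 0.579 (exact permutation p = 0.134, adjusted 0.402) and rho 0.548 (exact permutation p = 0.171), and r was 0.664 without GTML tumors 3 and 8. For Slc7a11 and Slc3a2, r was 0.205 in GMYC (rho 0.143) and 0.215 in GTML tumors (rho 0.238), with exact permutation p of 0.711 and 0.624, both 0.829 after adjustment. Slc38a1 and Slc38a2 gave r = 0.720 in GTML tumors (rho 0.714, exact permutation p = 0.0361 for r and 0.0576 for rho), which did not pass the adjustment (0.217) and fell to 0.496 without GTML tumors 3 and 8. In GMYC tumors their r was -0.164 (rho 0.0286, exact permutation p = 0.736 for r).

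The genes whose pattern over the 14 tumors was most like that of each carrier, among 15332 protein-coding genes, are given as a description, with Pearson's r of log2 CPM and no test, since the highest of so many values is high by construction. The pattern of Slc3a2 was most like that of Pcgf1 (r = 0.955, rho = 0.934) and the ribosomal protein gene Rps13 (r = 0.948, rho = 0.930). Slc7a5 was most like Gatad2a (r = 0.895) and Abhd17c (r = 0.866), and Abhd17c was also the nearest gene to Slc7a1 (r = 0.928), followed by the RNA helicase gene Ddx56 (r = 0.927). Slc38a2 was most like Elavl2 (r = 0.943) and Mecr (r = 0.914), and Slc38a1 was most like Myocd (r = 0.831) and Fkbp5 (r = 0.806). Slc1a4 was most like Wdr38 (r = 0.933) and Camk4 (r = 0.865), and Slc1a5 was most like Rsl1d1 (r = 0.860) and Fam217b (r = 0.850). The nearest genes to Slc43a1 were Gnl1 (r = 0.903) and Rtn4rl2 (r = 0.866), those to Slc7a11 were Tbc1d10a (r = 0.788) and Vtn (r = 0.775), and those to Slc7a3 were Gm7347 (r = 0.806) and Casr (r = 0.797).

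Among 39 other plasma membrane amino acid carriers, 30 were tested, of which 3 were called higher in GMYC and 7 higher in GTML tumors, and their median log2 fold change was 0.19. For this list and those that follow, the shares called among all genes tested were 9.71% higher in GMYC and 11.5% higher in GTML tumors. Those with the smallest p went both ways, with Slc7a8, described above, among them. Slc16a10 (TAT1), which lets aromatic amino acids out of cells, ranged from 17.98 to 55.3 CPM in GMYC and from 6.86 to 10.8 CPM in GTML tumors, with no overlap (log2 fold change -1.91, SE 0.24, adjusted p = 0.000742, edgeR). Slc6a15, a carrier of branched-chain amino acids and proline in neurons, was at 203 ± 23.4 and 156 ± 15.9 CPM (log2 fold change -0.38, adjusted p = 0.0134). In the other direction, the glycine carrier Slc6a9 (GLYT1) was at 19.4 ± 6.31 and 34.7 ± 11.04 CPM (log2 fold change 0.84, adjusted p = 0.0277). Slc1a7, a glutamate carrier of the retina, was at 1.75 ± 2.38 CPM in GMYC and 25.1 ± 21 CPM in GTML tumors (log2 fold change 3.81, SE 0.89, adjusted p = 0.0106). Slc3a1 (rBAT), the heavy chain of the kidney's cystine carrier, was scarce in both models but did not overlap, at 0.611 to 2.44 and 2.80 to 9.98 CPM (log2 fold change 1.53, adjusted p = 0.0117).

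Markers of cells that a biopsy can hold, those of MB cells included, were compared as well, and tumor cells can express some of the other markers too. Slc1a2, the gene whose promoter drives the transactivator and the most abundant of the astrocyte markers, was at 701 ± 103 CPM in GMYC and 586 ± 156 CPM in GTML tumors (log2 fold change -0.26, adjusted p = 0.308, edgeR). The summed astrocyte markers ranged from 808 to 1443 CPM in GMYC and from 548 to 1003 CPM in GTML tumors. Point estimates were higher in GMYC tumors for 8 of the 9, against 9991 of all 21024 genes. The median log2 fold change was -0.72 against 0.036 over all genes tested. EdgeR called 0 of 9, with 2 higher in GMYC and 1 higher in GTML tumors at an unadjusted p under 0.05. DESeq2 called 1, higher in GMYC tumors, and limma-voom 0. The summed endothelial markers ranged from 139 to 242 and from 175 to 261 CPM, with 1 of 12 called (Esam, higher in GTML tumors) and the glucose carrier Slc2a1 as the most abundant. Microglia markers had 0 of 8 called by edgeR, DESeq2 and limma-voom, 0 at an unadjusted p under 0.05 and sums of 161 to 270 and 88.9 to 348 CPM. For oligodendrocyte markers 2 of 9 were called higher in GMYC and 1 higher in GTML tumors, with sums of 157 to 370 and 160 to 378 CPM and Mbp as the most abundant. Markers of cerebellar granule neurons, led by Neurod1, also had 2 called higher in GMYC and 1 higher in GTML tumors of 7 tested, and those of MB, led by Crx, 1 and 1 of 6. None of the listed markers of any cell type was at 0 in all tumors. The part of these cells in the carriers' levels was not tested.

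Of 26 genes of the amino acid response, through which Atf4 raises carriers and synthesis enzymes, 6 were called higher in GMYC and 1 higher in GTML tumors, with a median log2 fold change of -0.26. Most of those with the smallest p were synthesis enzymes. Psat1, of serine synthesis, fell from 230 ± 26.2 CPM in GMYC to 153 ± 25.99 CPM in GTML tumors (log2 fold change -0.59, adjusted p = 0.00570, edgeR). Asns, which makes asparagine from glutamine, was at 186 ± 28.2 and 120 ± 34.7 CPM (log2 fold change -0.64, adjusted p = 0.0164). The mitochondrial folate enzyme Mthfd2 (-0.61), the proline synthesis enzyme Aldh18a1 (-0.36) and the cysteine synthesis enzyme Cth (-0.90) changed the same way, with adjusted p of 0.0159, 0.0194 and 0.0349. The gene called higher in GTML tumors was Eif2ak4 (GCN2), the kinase that senses uncharged transfer RNA, at 76.9 ± 19.8 and 121 ± 11.5 CPM (log2 fold change 0.65, adjusted p = 0.00715). Atf4 was at 153 ± 17.3 and 129 ± 18.1 CPM (log2 fold change -0.26, adjusted p = 0.0958). Some other genes known to answer to Atf4, named after their values had been seen, did not pass either and had point estimates higher in GTML tumors. Their log2 fold changes were 0.28 for Ddit3, 0.47 for Atf5, 0.63 for Cebpb, 0.099 for Trib3 and 0.051 for Chac1. Over all 26 genes, point estimates were higher in GMYC tumors for 16 and higher in GTML tumors for 10. Of all genes tested, 9991 were higher in GMYC and 11033 higher in GTML tumors. Phgdh (-0.94), Eif4ebp1 (-0.69) and Ddit4 (-0.58) were among the uncalled genes with point estimates higher in GMYC tumors.

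Genes by which the kinase complex mTORC1 senses amino acids gave 1 call higher in GMYC and 4 higher in GTML tumors among 34 tested, with a median log2 fold change of -0.092. The 4 calls are a share near the 11.5% of all genes, and apart from the 5 called genes the list passed in neither direction. Nprl3, of the GATOR1 complex that shuts mTORC1 off when amino acids are scarce, was at 47.6 ± 7.20 and 78.7 ± 15.4 CPM (log2 fold change 0.72, adjusted p = 0.00890, edgeR). Tsc1, of the complex that switches off the mTORC1 activator Rheb, was at 171 ± 18.3 and 245 ± 39.5 CPM (0.52, adjusted p = 0.00904). Rptor, the mTORC1 subunit that binds its substrates, had a log2 fold change of 0.46 (adjusted p = 0.0302). Lamtor1, which anchors mTORC1's docking complex to the lysosome, fell from 33.4 ± 5.76 to 22.02 ± 3.96 CPM (log2 fold change -0.60, adjusted p = 0.0180).

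Of 19 genes of glutathione and oxidative stress, 3 were called higher in GMYC tumors by edgeR. As higher in GTML tumors, edgeR, DESeq2 and limma-voom each called 0 of them, with 0 at an unadjusted p under 0.05 by edgeR and 2 by DESeq2. Their median log2 fold change was -0.19. Hmox1, which breaks down heme, ranged from 35.1 to 77.6 CPM in GMYC and from 10.4 to 28.4 CPM in GTML tumors, with no overlap (log2 fold change -1.57, SE 0.24, adjusted p = 0.00213, edgeR). Gpx1, which reduces peroxides with glutathione, fell from 82.3 ± 7.22 to 48.6 ± 16.7 CPM (-0.76, adjusted p = 0.0146), and Taldo1, of the pentose phosphate pathway, from 118 ± 18.6 to 74.7 ± 15.4 CPM (-0.65, adjusted p = 0.00909). The glutathione synthesis gene Gclc was at 83.3 ± 20.5 and 81.9 ± 14.7 CPM (adjusted p = 0.926). Nfe2l2, the factor that raises Slc7a11 under oxidative stress, was at 54.2 ± 7.36 and 47.4 ± 10.7 CPM (log2 fold change -0.19, adjusted p = 0.362).

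Of 15 enzymes of glutamine and glutamate, 4 were called higher in GMYC and 1 higher in GTML tumors, with a median log2 fold change of -0.088. Gls2, which turns glutamine into glutamate, ranged from 17.99 to 39.4 CPM in GMYC and from 10.3 to 21.9 CPM in GTML tumors (log2 fold change -0.95, adjusted p = 0.0103, edgeR). The enzymes that pass glutamate's nitrogen on, Got1 (-0.73), Got2 (-0.45) and Glud1 (-0.40), were lower in GTML tumors, with adjusted p of 0.00650, 0.0298 and 0.0430.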

How the data were processed

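RNA of 6 GMYC and 8 GTML tumor biopsies was sequenced by Ion Torrent. Alignment by the authors to mouse mm9 used STAR, then Bowtie, and featureCounts with GENCODE genes gave the deposited whole-number counts of 37310 genes, which are not normalized. The submitters' processing notes name STAR 2.4.0, Bowtie2 2.2 and Subread 1.5.2. How strand was handled is not given in the sources used here. A further 18 columns of counts, whose names match no label, were not used.

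Symbols and exon lengths came from GENCODE M21 (GRCm38) by Ensembl identifier (32620 genes, 87.4%). Slc7a5 overlaps Gm20388, which had 0 counts, and Slc7a11 overlaps antisense and pseudogene models that were not in the table, so reads of such models cannot be told apart from its own. No protein-coding gene of at least 500 exon bases had over 1.27 counts per base in a tumor. The carriers reached at most 0.375.

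The models were compared over 21024 genes, those above 1 CPM in 3 or more tumors, using edgeR 4.0.16 under R 4.3.3 (TMM, quasi-likelihood test, Benjamini-Hochberg over all genes tested, called at an adjusted p under 0.05), a method tested on simulated counts. Log2 CPM used a prior count of 2. Alternatives were DESeq2 1.42.0, limma-voom (limma 3.58.1, the method of the study), no TMM, other filters, each tumor left out, the replicate number as a block, a term that split the tumors at a small nucleolar RNA share of 0.3%, the fit on each side of it, a Y-linked covariate, the study's thresholds and, added after the data had been seen, leaving out GMYC tumor 6 and GTML tumor 2. Pearson and Spearman correlations were tested by exact two-sided permutation. Figures were drawn with matplotlib 3.10.9.

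The carriers and all gene lists were chosen with earlier results of these data known. The lists, written from general knowledge, were other plasma membrane amino acid carriers, amino acid response genes, amino acid sensing by mTORC1, glutathione and oxidative stress genes, glutamine and glutamate enzymes, and markers of endothelial, erythroid, astrocyte, oligodendrocyte, microglia, cerebellar granule neuron and MB cells. Named were all 10 carriers, Myc, Mycn, Atf4 and Nfe2l2, up to 6 called genes of each list by smallest p, the 2 genes most like each carrier, and the most abundant gene of each marker list. Some genes that this rule names are not reported here. Slc7a2, Slc7a6, Slc7a7, Slc7a10, Slc43a2, Gclc, Ddit3, Atf5, Cebpb, Trib3, Chac1, Phgdh, Eif4ebp1, Ddit4, the globin genes, Alas2, Slc4a1, Otx2, Eomes, Esam and, as the driver's promoter, Slc1a2 were named after their values had been seen. Counts of tumors of the same model differed by more than sampling noise in every pair (lowest chi-square per degree of freedom, 5.67). The precision of a level follows from its count and the spread between tumors.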

Additional observations from a re-analysis of the deposited data

Results flagged for a closer look

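Of 28 groups of tumors looked at for the 10 carriers and the 4 regulators, 2 had a tumor far from the others by Dixon's test, where chance gives about 1 in 20 groups, or 1.4 of 28. Slc7a1 in GMYC tumor 6 was at 115 CPM, against 264 CPM in the next lowest GMYC tumor, a gap of 0.774 of the whole range. Myc in the same tumor was at 33.3 CPM, against 134 CPM in the next lowest, a gap of 0.763 of the range. Without this tumor the log2 fold change of Slc7a1 moved from -0.25 to -0.40 and stayed above the threshold (adjusted p = 0.0670, edgeR).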

How the results depend on the processing

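Over the 10 carriers and all alternatives, 218 fold changes kept their direction and side of the threshold, 11 lost a call, 7 gained one and 14 changed sign, none of those 14 past the threshold. The carriers called higher in GMYC tumors numbered 1, but 2 with DESeq2 (Slc3a2 and Slc1a5), 0 to 2 without 1 tumor, 3 without GMYC tumor 6 and GTML tumor 2 (Slc1a5, Slc3a2 and Slc7a1), and 0 with the replicate block, the term for the small nucleolar RNA split, the tumors with the higher share, the Y-linked covariate or the study's thresholds. Those higher in GTML tumors numbered 0, but 1 (Slc43a1) with DESeq2 and with limma-voom. Of all genes, 2041 were called higher in GMYC and 2418 higher in GTML tumors, against 1184 to 3166 and 1433 to 3264 without 1 tumor, lowest without GMYC tumor 3 and highest without GTML tumor 2. DESeq2 called 2547 and 3305 of the same 21024 genes, and limma-voom 2388 and 2101. Leaving out both GMYC tumor 6 and GTML tumor 2 gave 3031 and 3099 of 20862 genes (edgeR). The counts over all genes were 1428 (higher in GTML) with the split term, 2 and 0 at the higher share (1065 and 1355 at an unadjusted p under 0.05), 1334 and 1328 at the lower share, 554 and 1125 with the Y-linked covariate, and 232 and 444 at the study's thresholds. With the replicate block they were 87 and 164, and the adjusted p of Slc3a2 was 0.174. Tumors share only a number across the models. Correlations of their deviations for numbers 1 to 6 lay between -0.212 and 0.240, and only number 1 matched its own number best.

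Signs changed for Slc7a5 without GMYC tumor 3 (0.023), GTML tumor 3 (0.053) or GTML tumor 8 (0.028), in a range of -0.12 to 0.053 over the 14 fits without 1 tumor, with the split term (0.18), at the higher (0.23) and lower share (0.14) and with the Y-linked covariate (0.080). They also changed with the split term for Slc1a4 (0.0054) and Slc7a3 (0.022), at the lower share for Slc1a4 (0.31), Slc7a1 (0.015) and Slc7a3 (0.68), and at the higher share for Slc38a1 (0.0046) and Slc38a2 (0.12). The causes were not tested. Without GTML tumor 2 the calls higher in GMYC tumors rose to 5 other carriers, 9 amino acid response genes and 4 mTORC1 genes. They also rose to 6 glutathione genes and 6 glutamine enzymes. Those higher in GTML tumors rose to 8 other carriers and 3 amino acid response genes. They stayed at 4 mTORC1 genes, 0 glutathione genes and 1 glutamine enzyme. Of all 20936 genes in that fit, 3166 were called higher in GMYC and 3264 higher in GTML tumors. By the longest transcript, median levels per kilobase over all tumors were 47.1 (Slc3a2), 3.97 (Slc7a11), 36.7 (Slc1a5), 44.8 (Slc38a1), 47.1 (Slc38a2), 33.7 (Slc7a1) and 6.48 CPM (Slc43a1). With 6 and 8 tumors, the intervals of most carriers are wide enough to hold a change in either direction.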
